A study of Mus musculus with 13 samples.

Results

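The regions described here are 1517 binding sites of Olig2 that carry strong Olig2 ChIP-seq coverage and share no base with a peak of Nkx2.2 or Nkx6.1. They were chosen by measured values. Of the 11747 peaks in the authors' Olig2 list, 9390 shared no base with a Nkx2.2 or Nkx6.1 peak and are called Olig2-only. An Olig2-only peak was selected on a mean coverage of 20 or more in block 1 and of 10 or more in block 2 of the Olig2 coverage table, within 250 bp of the peak centre. These 1517 peaks, called strong Olig2-only, were 16.2% of the Olig2-only peaks. The other 7873 are called weaker Olig2-only, and 928 of the 2357 Olig2 peaks shared with Nkx2.2 or Nkx6.1 passed the same thresholds and are called strong shared peaks.

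The binding data are ChIP-seq, the sequencing of DNA co-precipitated with a factor from crosslinked chromatin, from neural progenitors grown from mouse embryonic stem cells, in 13 libraries (7 ChIP and 6 input). Ventral progenitors, used for Olig2, Nkx2.2 and Nkx6.1 with 2 ChIP libraries each, spent 2 days in suspension and then 3 days with 500 nM retinoic acid and 160 to 800 nM SAG, a Smoothened agonist that switches on Sonic hedgehog signalling. Dorsal progenitors, used for 1 Gli3 ChIP library, received the retinoic acid without SAG. Olig2 replicate 1 came from the YFP3.1 line and Olig2 replicate 2 from a derivative of it, Rosa26-Gli1FLAG, which carries a FLAG-tagged Gli1 at the Rosa26 locus; Swiss Webster, 129 Sv and C57BL6/J were mixed in the strain background. Nkx6.1 used the same pair of lines, whereas both Nkx2.2 libraries came from Rosa26-Gli1FLAG. Olig2 was precipitated with 1 antibody (Millipore AB9610), Nkx2.2 and Nkx6.1 with antibody cocktails, and Gli3 with anti-FLAG M2 from a derivative of the V6.5 line with a 3xFLAG-Avi tag at the Gli3 initiation codon. The progenitors are cultured populations, and the share of cells that contained Olig2 was not analysed here. Differences with Gli3 therefore set dorsal against ventral cultures, another line and another antibody side by side, and these cannot be told apart.

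Olig2 is a basic helix-loop-helix transcription factor that binds E-box sequences, mainly as a repressor, and marks the progenitors of motor neurons and later of oligodendrocytes. Nkx2.2, a homeodomain repressor of the more ventral p3 domain, and Olig2 limit each other's expression. Nkx6.1 is a homeodomain factor present in the p3 domain and in motor neuron progenitors, and is needed for Olig2 expression in the latter. Gli3 is a zinc-finger factor that acts mainly as a repressor of Sonic hedgehog targets where the signal is low. A peak of Olig2 without a peak of either homeodomain factor is a site where the lists of Olig2, Nkx2.2 and Nkx6.1 record Olig2 alone. A Gli3 peak can still overlap it.

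Each peak was 300 bp long in the mm9 build, and each list holds 1 set of peaks per factor with no score. The coverage tables give values at offsets of up to 2000 bp in steps of 25 bp, in 3 blocks that name no library. Whether blocks 1 and 2 are the 2 Olig2 ChIP libraries is not stated, nor is the library of block 3. Each table is named with 3 codes, of which the Olig2 and Nkx6.1 tables have the last in common, and the labels list both tables under 1 input that served both factors. The order of the blocks is not given, so block 3 was not taken to be that input. Coverage is on the authors' scale and the read depth behind it is unknown. Tests below compare peaks within these lists, not separate cultures, and their intervals cover counting error only. Neighbouring peaks are not independent, so these intervals are too narrow to that extent.

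The coverage of the strong Olig2-only peaks was tall and narrow in blocks 1 and 2 and low in block 3. In block 1 their coverage within 250 bp of the centre ran from 20.02 to 302.8 with a median of 32.4, against a median of 9.49 at weaker Olig2-only peaks. In block 2 it ran from 10.02 to 169.4 with a median of 22.1, against a median of 6.26 at weaker Olig2-only peaks. Both differences follow from the selection and are given without a test. Block 3, which the selection did not use, had a median of 0.766 at strong Olig2-only peaks, with a highest value of 4.56, against a median of 0.654 at weaker Olig2-only peaks, where the highest value was 52.997.

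Mean coverage at the centre of the strong Olig2-only peaks exceeded that of their outermost 250 bp on both sides by a ratio of 48.4 in block 1, 36.3 in block 2 and 1.68 in block 3. The leftmost offsets had lower mean coverage in all 3 blocks: 0.589, 0.444 and 0.186 at the last offset on the left against 0.967, 0.815 and 0.560 at the last on the right. With the right flank alone the ratios were 48.4, 35.5 and 1.51. The profile shape rests on the same blocks as the selection, which favours a high centre, and is given as a description. The highest point of the profile lay within 50 bp of the centre in 96.9% of strong Olig2-only peaks in block 1 and in 92.0% in block 2. These shares were 96.4% and 90.5% at strong shared peaks, and 92.3% and 78.2% at weaker Olig2-only peaks. The width at 50% of the summit had a median of 225 bp in block 1 and 250 bp in block 2, in strong and in weaker Olig2-only peaks alike. In block 2 its lower quartile was 250 bp at strong and 225 bp at weaker Olig2-only peaks. At strong shared peaks the median was 225 bp in block 1 and 275 bp in block 2. A further rise to at least 50% of the summit, more than 500 bp from the centre, was present in 4.75% of strong Olig2-only peaks in block 1 and 5.80% in block 2, against 5.93% and 6.47% of strong shared peaks and 12.5% and 20.9% of weaker Olig2-only peaks.

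**Figure D1:**
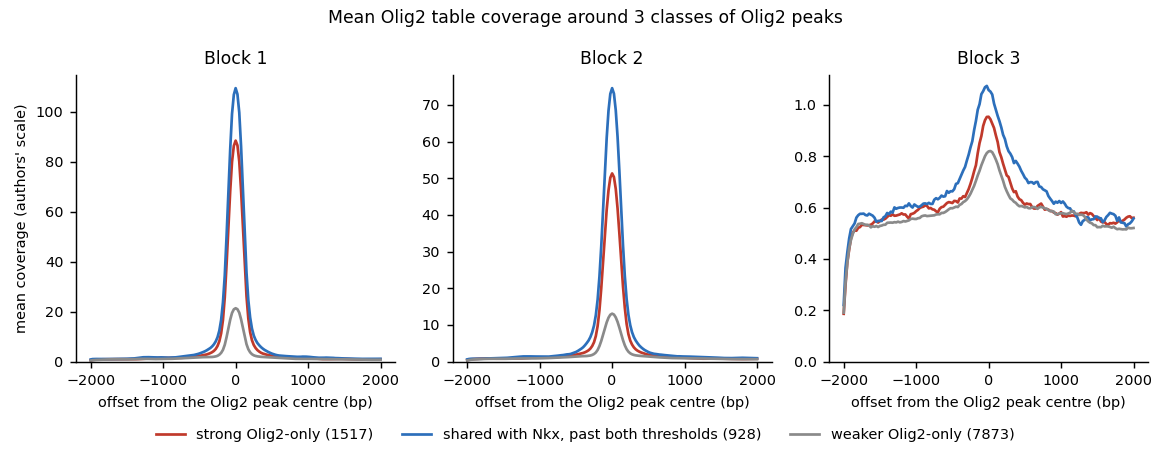
Mean coverage on the authors' scale against the offset from the Olig2 peak centre in bp, for blocks 1, 2 and 3 (each with its own axis from 0), in strong Olig2-only, strong shared and weaker Olig2-only peaks. At the centre the mean of the strong Olig2-only peaks was 88.4 in block 1, 51.3 in block 2 and 0.953 in block 3.

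The strength of single sites was only partly shared between the blocks. Over the 1517 strong Olig2-only peaks, Spearman's rho was 0.549 between blocks 1 and 2, 0.0717 between blocks 1 and 3 and 0.201 between blocks 2 and 3. These are descriptions across peaks of the same libraries, inside a range cut by both thresholds. The ratio of block 1 to block 2 had a median of 1.53 and ran from 0.438 to 10.1. The peak with the highest ratio, chr15:91468152-91468451, had a coverage of 123.9 in block 1 and 12.3 in block 2. The peak with the lowest ratio, chr10:127472366-127472665, had 20.7 in block 1 and 47.3 in block 2.

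The block 1 threshold was the tighter of the pair. Of the Olig2-only peaks, 1763 passed in block 1, and 86.0% of them also passed in block 2. In block 2, 3267 passed, and 46.4% of them also passed in block 1. Thus 246 passed in block 1 only, 1750 in block 2 only and 5877 in neither. Just inside the block 1 threshold, 3 members had 20.02, 20.03 and 20.06. Just outside it, 3 peaks past the block 2 threshold had 19.996, 19.996 and 19.98. Around the block 2 threshold the nearest members had 10.02, 10.04 and 10.04, and the nearest excluded peaks had 9.999, 9.999 and 9.95. The cut runs through a continuous range. The order of the deposited list followed block 1 more closely than block 2: over all 11747 Olig2 peaks the rank correlation of the line number was -0.928 with block 1 coverage and -0.634 with block 2 coverage. Of the strong Olig2-only peaks, 1432 stood in the first 3000 lines and 85 after them.

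**Figure D2:**
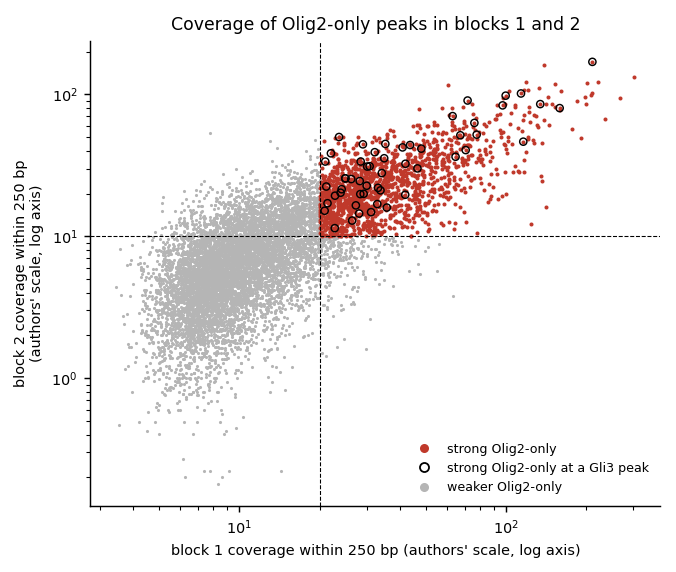
Coverage within 250 bp of the peak centre in block 2 against block 1 (log axes, authors' scale) for each of the 9390 Olig2-only peaks. Dashed lines mark the thresholds of 20 and 10, the strong peaks lie above both, and open circles mark the 53 of them at a Gli3 peak.

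The tallest strong Olig2-only sites were spread over the genome. By mean rank in blocks 1 and 2, the first was chr2:60626221-60626520, with a coverage of 302.8 in block 1, 131.4 in block 2 and 1.21 in block 3. Its nearest Nkx2.2 or Nkx6.1 centre was 223703 bp away and its nearest other Olig2 centre 70709 bp away. The second, chr6:127972305-127972604, had 210.5 in block 1, 169.4 in block 2 and 2.69 in block 3, and a Gli3 centre lay 10 bp from its own. The third, chr7:99891361-99891660, had 220.6 in block 1, 122.8 in block 2 and 0.728 in block 3. Its nearest Nkx2.2 centre was 181643 bp away and its nearest Gli3 centre 295344 bp away. Next came chr2:4074308-4074607 with 200.9 in block 1 and 120.1 in block 2, and chr19:38089924-38090223 with 209.1 in block 1 and 103 in block 2.

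The remaining 5 of the first 10 were chr9:92825457-92825756, chr10:95040480-95040779, chr10:45519808-45520107, chr1:9639317-9639616 and chr11:55447430-55447729. Their coverage ran from 138.7 to 267.6 in block 1 and from 94.8 to 162.2 in block 2. The peak on chromosome 1 was the 1 of these 5 with more coverage in block 2 than in block 1, and another Olig2 centre lay 445 bp from it. The highest block 3 values among the strong peaks were 4.56 at chr8:125566362-125566661, 3.59 at chr14:25598619-25598918 and 2.99 at chr9:96890002-96890301. At all 3, coverage was higher in block 2 than in block 1. The peak on chromosome 8 lay 15 bp from a Gli3 centre.

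Gli3 is the other factor profiled, and its list took no part in the selection. A Gli3 peak shared at least 1 bp with 53 of the 1517 strong Olig2-only peaks (3.49%, 95% Wilson interval 2.68 to 4.54), with 92 of the 928 strong shared peaks (9.91%, 8.15 to 12.0) and with 144 of the 7873 weaker Olig2-only peaks (1.83%, 1.56 to 2.15). Over all Olig2 peaks the share was 3.26%, so the share at strong Olig2-only peaks was near this background. By Fisher's exact test it was lower than at strong shared peaks (odds ratio 0.329, 95% interval 0.228 to 0.472, adjusted p = 1.01e-09) and higher than at weaker Olig2-only peaks (odds ratio 1.94, 1.38 to 2.69, adjusted p = 0.00023). The tests were two-sided, with Benjamini-Hochberg adjustment over 6 comparisons.

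The strong Olig2-only peaks, with medians of 32.4 in block 1, 22.1 in block 2 and 0.766 in block 3, also had less coverage than the strong shared peaks, with 35.4, 30.6 and 0.915. Compared within bins of block 1 and block 2 coverage, the odds ratio of strong Olig2-only to shared peaks was 0.458 (Mantel-Haenszel, 0.319 to 0.658). The 3.49% of strong Olig2-only peaks at Gli3 stood below each kind of shared peak that passed both thresholds, with Gli3 at 9.96% of the 251 shared with Nkx2.2 alone, 6.68% of the 404 shared with Nkx6.1 alone and 14.7% of the 273 shared with both. The lowest lower end of these 3 intervals was 4.63%, and the 3 differences were not tested one by one.

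The share at Gli3 differed more between ranges of block 2 and block 3 coverage than between ranges of block 1 coverage. The strong class stood at 3.49%, against 4.86% (3.95 to 5.97) of the Olig2-only peaks that passed in block 2 only. Of the 246 that passed in block 1 only, 0 lay at a Gli3 peak, with an upper end of the Wilson interval of 1.54%. A limit of 3 counts in 246 would be 1.22%. Of those that passed in neither, 1.00% did (0.779 to 1.29). With the block 2 threshold alone the odds ratio against the remaining Olig2-only peaks was 4.53. With the block 1 threshold alone it was 1.61 (Fisher's exact test, adjusted p = 0.0109). These splits cut on the blocks of the selection and differ in the peaks that pass, 3267 for block 2 and 1763 for block 1. The difference between the odds ratios was not tested.

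Among the strong Olig2-only peaks, in 4 bins of equal size, from the lowest to the highest block 2 coverage, 1.58%, 2.90%, 2.64% and 6.86% lay at a Gli3 peak. By block 3 coverage the shares were 1.58%, 1.85%, 3.96% and 6.60%. By block 1 coverage they were 3.16%, 3.69%, 3.17% and 3.96%, all inside each other's intervals. These members were already cut at the block 1 threshold. A Gli3 peak lay at 6 of the 100 members with block 1 coverage from 80 to 160 (2.78 to 12.5%). Above 160 it lay at 1 of the 14 (1.27 to 31.5%). Both intervals include the 3.49% of the whole class, and no difference was tested. Over all Olig2-only peaks the share increased with block 1, with 1.45%, 1.75%, 2.43% and 2.77% in its 4 bins. With block 2 it was 0.170%, 1.15%, 2.00% and 5.07%. Compared within 4 bins of equal size by block 3 coverage, the odds ratio of strong to weaker Olig2-only peaks was 1.68 (Mantel-Haenszel, 1.22 to 2.32). These bins were chosen after seeing the data. Coverage still varies inside a bin, so the part of block 3 in this difference was not tested.

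**Figure D3:**
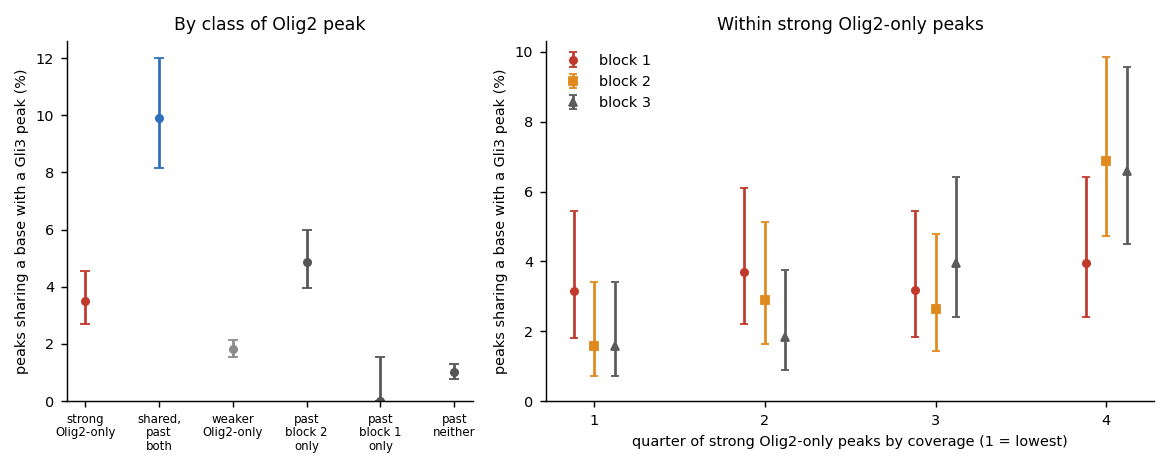
Share of Olig2 peaks that share a base with a Gli3 peak, in percent, with 95% Wilson intervals. Left, by class of Olig2 peak, with 3.49% at strong Olig2-only peaks and 0 of 246 at those past the block 1 threshold only; right, in 4 bins of equal size of the strong Olig2-only peaks by coverage in each block, where the highest bin reached 6.86% for block 2 and 3.96% for block 1.

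Where Gli3 and a strong Olig2-only peak overlapped, their centres were close. The median distance over the 53 sites was 58 bp, and 25 of them lay within 50 bp. At weaker Olig2-only peaks the median was 64 bp. The 53 sites had a median coverage of 32.9 in block 1, 31.1 in block 2 and 1.08 in block 3, against 32.4, 22.0 and 0.766 at the 1464 strong peaks without Gli3. The medians were close in block 1, where the upper quartile was 63.0 at the 53 sites and 47.4 at the others, and higher in block 2 and block 3. These differences were not tested.

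After the peak on chromosome 6, the tallest of the 53 were chr13:81768530-81768829, with 158.7 in block 1 and 79.97 in block 2, and chr4:76015924-76016223, with 134.2 in block 1 and 85.4 in block 2. Their Gli3 centres lay 9 bp and 58 bp away. Another, chr16:42190389-42190688, had 113.7 in block 1, 101.4 in block 2 and 2.60 in block 3, with the Gli3 centre 172 bp away. Still others were chr1:167896661-167896960, with the Gli3 centre 23 bp away, and chr3:103223856-103224155, with it 4 bp away. Chromosome 4 held 7 of the 53 sites among 105 strong peaks, and chromosome 8 held 7 among 86. Chromosome 17 held 0 among 45 strong peaks and chromosome X 0 among 33, where a limit of 3 counts would be 6.67% and 9.09%.

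Within a wider distance, Gli3 lay near a larger share of strong than of weaker Olig2-only peaks. A difference was not detected without the overlapping peaks. A Gli3 centre lay within 10 kb of 121 strong Olig2-only peaks (7.98%) and of 454 weaker ones (5.77%). The odds ratio by Fisher's exact test was 1.42 (1.14 to 1.75, adjusted p = 0.00232). Over all Olig2 peaks the share was 7.56%, with the strong class near it and the weaker class below it. That background includes strong and weaker shared peaks, at 14.9% and 12.2%, so it lies above the share over Olig2-only peaks. The call against weaker peaks was lost with the block 1 threshold alone (odds ratio 1.22, exact test, adjusted p = 0.103). The counts include the 53 strong and 144 weaker peaks that overlap Gli3. Without them, a Gli3 centre lay within 10 kb of 68 of 1464 strong Olig2-only peaks (4.64%) and of 310 of 7729 weaker ones (4.01%), which did not pass (odds ratio 1.17, 0.878 to 1.53, exact test, adjusted p = 0.326). That interval also includes 1.42, so the lost call does not show where the difference lies.

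Olig2 peaks crowded somewhat more around strong than around weaker sites. Another Olig2 centre lay within 10 kb of 458 strong Olig2-only peaks (30.2%) and of 1922 weaker ones (24.4%), against 27.1% of all Olig2 peaks. Fisher's exact test gave an odds ratio of 1.34 (1.18 to 1.51, adjusted p = 1.01e-05). The strong class did not stand apart from Olig2-only peaks past the block 2 threshold only, of which 31.7% had such a neighbour. The share was 17.5% past the block 1 threshold only and 22.5% past neither. These splits were not tested. The median distance to another Olig2 centre was 34.6 kb at strong and 41.6 kb at weaker peaks. The neighbours were not mainly strong themselves. Of the 458 nearest neighbours, 65.5% were weaker Olig2-only peaks, which make up 67.0% of the list, and 14.6% were strong Olig2-only peaks, which make up 12.9% of it.

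Only 86 strong Olig2-only peaks (5.67%) had another strong one within 10 kb. Joined at gaps under 10 kb, the strong peaks formed 1431 singles, 40 pairs and 2 runs of 3. The runs were chr19:21855861-21864609 and chr7:139622703-139623431. The run on chromosome 7 spans 729 bp, so its peaks overlap in part, and its coverage ran from 32.5 to 41.2 in block 1 and from 32.1 to 46.1 in block 2. Among 16 pairs of strong peaks that were each other's nearest within 1000 bp, the taller one in block 1 was also the taller one in block 2 in 12 pairs. Close pairs share coverage, since both windows read the same flanks.

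Windows of 100 kb rarely held many strong sites. There were 1315 windows with 1 strong Olig2-only peak, 83 with 2 and 12 with 3. The first 3 of these 12 by position were chr2:145900001-146000000, chr4:117000001-117100000 and chr7:139600001-139700000. The window on chromosome 2 held 4 Olig2 peaks, 1 Gli3 peak and 0 peaks of Nkx2.2 or Nkx6.1. The window on chromosome 4 held 8 Olig2, 3 Nkx2.2, 1 Nkx6.1 and 4 Gli3 peaks. The window on chromosome 7 held 4 Olig2 peaks, 1 Nkx6.1 peak and 0 peaks of Nkx2.2 or Gli3.

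No chromosome stood apart in its share of strong sites. The strong share of Olig2-only peaks ran from 12.7% on chromosome 12 to 19.2% on chromosome 18. Of 20 chromosomes compared with the rest by two-sided Fisher's exact tests, 0 (0%) passed an adjusted p of 0.05, and 1 had an unadjusted p below 0.05 (chromosome 12, p = 0.0416). The lowest adjusted p was 0.599. Chromosome X held 33 strong peaks among 178 Olig2-only peaks (18.5%).

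Strong Olig2-only peaks did not differ detectably from weaker ones in how near a homeodomain factor's peak lay. A Nkx2.2 or Nkx6.1 centre was within 2 kb of 104 strong Olig2-only peaks (6.86%) and of 486 weaker ones (6.17%), against 6.28% of all Olig2-only peaks. The exact test gave an odds ratio of 1.12 (0.890 to 1.40, adjusted p = 0.326). Within 10 kb the counts were 268 strong peaks (17.7%) and 1264 weaker ones (16.1%), against 16.3% of all Olig2-only peaks (odds ratio 1.12, 0.967 to 1.30, exact test, adjusted p = 0.144). The intervals allow an odds ratio of up to 1.40 for 2 kb and 1.30 for 10 kb. Both comparisons passed with lower thresholds of 10 and 5 (odds ratios 1.32 and 1.26) and with the block 2 threshold alone (1.59 and 1.30). The comparison for 10 kb also passed with coverage averaged within 100 bp (1.16). The median distance to the nearest Nkx2.2 or Nkx6.1 centre was 57.7 kb at strong and 66.0 kb at weaker peaks. For Nkx2.2 alone it was 102 kb at strong and 118 kb at weaker peaks, and for Nkx6.1 alone 148 kb and 146 kb.

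**Figure D4:**
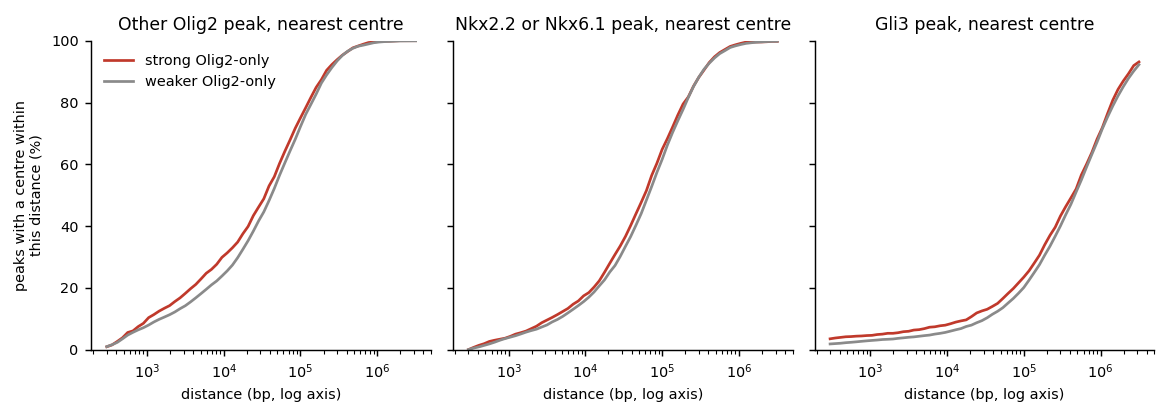
Cumulative share of peaks, in percent, whose nearest centre of another Olig2 peak, of a Nkx2.2 or Nkx6.1 peak, or of a Gli3 peak lies within the distance on the log axis in bp, for strong and weaker Olig2-only peaks. At 10 kb the strong curve stands at 30.2% for Olig2, 17.7% for Nkx2.2 or Nkx6.1 and 7.98% for Gli3, against 24.4%, 16.1% and 5.77% for the weaker one.

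A strong Olig2-only peak close to a Nkx peak falls inside the table of that factor, so its coverage there can be read although no Nkx peak was called on it. For each Nkx peak with a strong Olig2-only centre 300 to 1900 bp away, coverage within 100 bp of the Olig2 centre (the member side) was set against coverage at the same distance on the other side of the Nkx peak (the mirror side). Exact two-sided sign tests were adjusted over 6 comparisons. The tests count Nkx peaks. Some Olig2 peaks lay near more than 1 Nkx peak, or near peaks of both factors, and were counted each time. The counts are therefore not fully independent, and the p-values are too low to that extent. The 62 Nkx2.2 peaks had a median distance of 703.5 bp to the Olig2 centre. In block 1 of the Nkx2.2 table the member side had a median of 8.36 and the mirror side 1.03, with 36.2 at the Nkx2.2 centres themselves. The member side was higher at 52 Nkx2.2 peaks, lower at 9 and equal at 1 (exact sign test, adjusted p = 5.41e-08). In block 2 the medians were 3.01 on the member side and 1.16 on the mirror side, with 51 higher, 10 lower and 1 equal (exact sign test, adjusted p = 1.92e-07).

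The Nkx6.1 table gave the same direction at 56 Nkx6.1 peaks, with a median distance of 906.5 bp. In block 1 the member side had a median of 5.07 and the mirror side 0.928, with 16.03 at the Nkx6.1 centres, and it was higher at 50 and lower at 6 (exact sign test, adjusted p = 6.11e-09). In block 2 the medians were 3.75 and 1.06, with 47 higher and 9 lower (exact sign test, adjusted p = 3.86e-07). In blocks 1 and 2 of both tables, the median at these strong sites near a Nkx peak lay between that of the mirror side and that of the Nkx centres, which was 6.34 for Nkx2.2 and 8.71 for Nkx6.1 in block 2. An example near a Nkx peak, picked by its values, is the member chr13:73172237-73172536, 355 bp from a Nkx2.2 centre. It had 18.3 in block 1 of the Nkx2.2 table against 0.129 on the mirror side. In block 3 it had 0.571 against 1.20 on the mirror side, the other direction. Strong sites farther from a Nkx peak could not be read in this way.

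Block 3 of both tables, which is lower than the others, was also higher on the member side. In the Nkx2.2 table its medians were 0.870 on the member side and 0.598 on the mirror side, with 41 higher and 21 lower (exact sign test, adjusted p = 0.0151). In the Nkx6.1 table they were 1.18 and 0.479, with 42 higher, 12 lower and 2 equal (exact sign test, adjusted p = 6.25e-05). At the Nkx centres themselves block 3 had a median of 1.20 for Nkx2.2 and 0.697 for Nkx6.1. The member side was above the Nkx centre in block 3 at 27 of the 62 Nkx2.2 peaks and at 38 of the 56 Nkx6.1 peaks. The part of block 3 in the difference seen in the other blocks was not tested. The same direction was seen near weaker Olig2-only peaks, where it was not tested. There the member side was higher in block 1 at 193 of 261 Nkx2.2 peaks and at 254 of 295 Nkx6.1 peaks, with member side medians of 4.97 and 3.01.

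**Figure D5:**
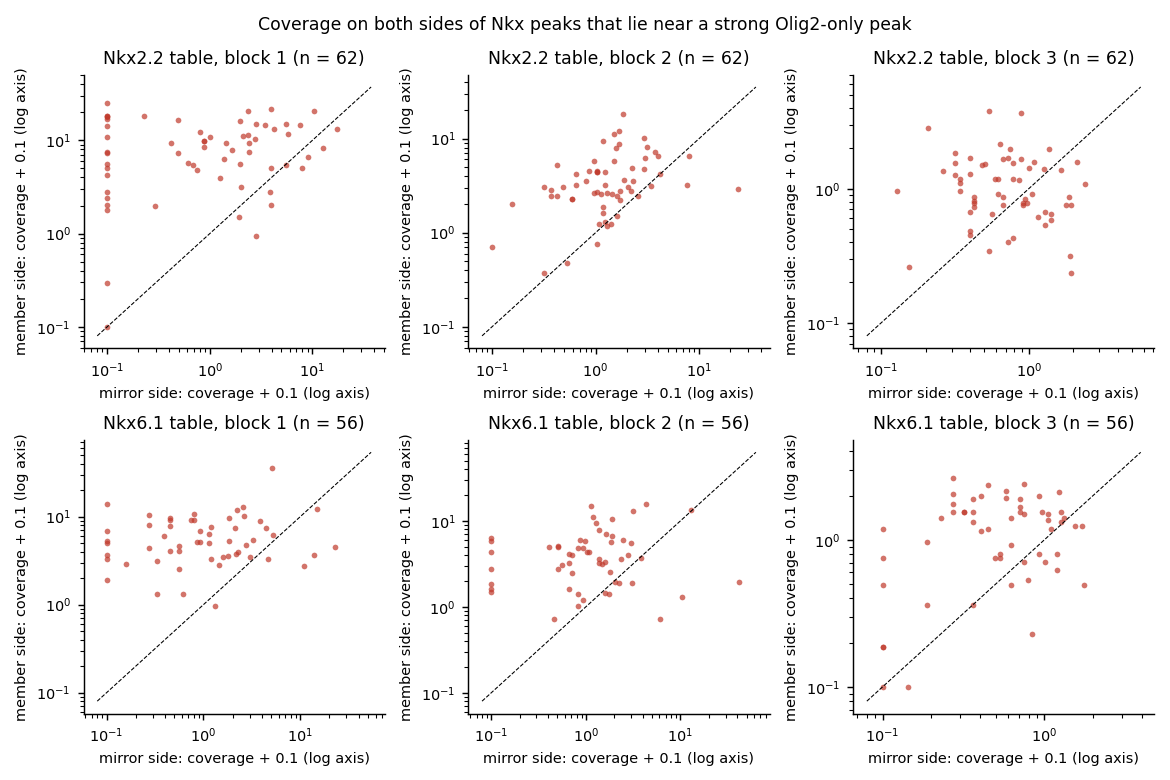
Coverage + 0.1 on the member side against the mirror side (log axes, authors' scale) in blocks 1, 2 and 3 of the Nkx2.2 table (62 Nkx2.2 peaks) and the Nkx6.1 table (56 Nkx6.1 peaks), 1 point per Nkx peak, with the dashed line of equality. In block 1, 52 of the 62 points and 50 of the 56 points lie above the line.

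The 5 strong Olig2-only peaks nearest to a Nkx centre without overlap lay 310 to 320 bp from it. Their coverage in the Olig2 table ran from 25.1 to 110.4 in block 1 and from 10.8 to 57.5 in block 2. The tallest of them was chr13:44477455-44477754, 318 bp from a Nkx6.1 centre. Another, chr14:48427967-48428266, lay 320 bp from a Nkx6.1 centre and 363 bp from a Nkx2.2 centre. With peaks 300 bp long, their edges came close to the edge of the Nkx peak without touching it. Without all peaks that have a Nkx centre within 1000 bp, the odds ratio for Gli3 against weaker Olig2-only peaks was 1.93 and that against shared peaks 0.317.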

How the data were processed

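Peak lists and coverage tables were used as deposited. Per the submitters' processing notes, Bowtie2 2.2.4, HOMER and the build mm9 were used; the sources used here do not say which tool made which file or how replicates were combined. Per the file headers, the deposited coverage tables give offsets around the peak centre in 3 unnamed blocks; scaling and depth are not given. The peak lists give positions only, with no score per peak. Row i of a table was matched to line i of its list, checked with neighbouring Olig2 peaks (median profile correlation 0.970 to 0.998, and -0.0834 to -0.0187 with rows shuffled).

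The members, lists and tests were chosen with earlier results of these data known. Peaks overlapped at 1 bp or more, and coordinates are 1-based. Class shares were compared by Fisher's exact test and paired coverage by exact sign tests, with Benjamini-Hochberg adjustment (SciPy 1.17.1, statsmodels 0.14.6), after tests on simulated data. Named regions followed a fixed rule (10 tallest, tallest at Gli3, extremes of ratio and block 3, nearest to Nkx, densest windows); the member on chromosome 13 in the mirror comparison was chosen after its values were seen. With no mm9 genome or annotation used here, gene names, sequences and the planned E-box search were not run.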

Additional observations from a re-analysis of the deposited data

How the results depend on the processing

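Over 81 alternatives with an adjusted p, 73 kept their side of the threshold of 0.05, 0 reversed, 3 lost the call and 5 gained one. Another 5, within bins of coverage, have an unadjusted p and kept the direction, and 6 on chromosomes kept a count of 0. A further 6, on coverage, have no test. They stayed inside a wide limit set by the SD of coverage over the members. Averaged within 100 bp, the median of the strong Olig2-only peaks was 56.9 in block 1 and 36.0 in block 2. Within 250 bp it was 32.4 and 22.1. With the block 1 threshold alone, Gli3 within 10 kb lost its call against weaker Olig2-only peaks (odds ratio 1.22), as it did without the peaks that overlap Gli3 (1.17). With Nkx2.2 centres 500 to 1900 bp away, block 3 of the Nkx2.2 table lost its call (63.4% higher on the member side, exact sign test, adjusted p = 0.117). With thresholds of 10 and 5, Nkx2.2 or Nkx6.1 within 2 kb and 10 kb passed (odds ratios 1.32 and 1.26), as with the block 2 threshold alone (1.59 and 1.30); with coverage within 100 bp, the 10 kb comparison passed (1.16). The cause was not tested. The odds ratio for Gli3 overlap ran from 1.61 to 4.53 against weaker Olig2-only peaks and from 0.290 to 0.458 against strong shared peaks. The comparisons within bins of coverage, those without overlapping peaks and the distance of 300 to 1600 bp were chosen after seeing the data. The E-box search and its alternative were not run.

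No paired analysis was possible because the blocks name no library and each factor has 1 list, so leaving out a replicate could not be run either. Depth is unknown, so low Nkx coverage at a site cannot be read as absence.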

Other observations

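The balance between the blocks differed between classes of Olig2 peaks, which no comparison above covers. The ratio of block 1 to block 2 coverage had a median of 1.53 at strong Olig2-only peaks, 1.25 at strong shared peaks, 1.59 at weaker Olig2-only peaks and 1.08 at weaker shared peaks. Strong and weaker classes were cut on these same blocks, so their ratios are shaped by the selection. A Gli3 peak lay at 3.49% of strong Olig2-only peaks and at 6.58% of weaker shared peaks. Another Olig2 centre lay within 10 kb of 30.2% of strong Olig2-only peaks and of 34.6% of strong shared peaks. These values were seen in the data and were not tested.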
